A study of Homo sapiens with 6 samples.

Results

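NF-kB targets and chemokines were followed in SW480 cells after knockdown of MORC2. The set held 10 genes, taken by gene symbol from a deposited table of 56303 genes. It comprised the chemokine genes CXCL1, CXCL2, CXCL3, CXCL8 and CCL20, the feedback inhibitor genes NFKBIA and TNFAIP3, the subunit genes RELB and NFKB2, and the ubiquitin ligase gene BIRC3. All 10 were in the table, and 9 had enough counts to be tested among 21005 genes; CXCL2 did not. SW480 is a line from a human colorectal adenocarcinoma, and MORC2 is a chromatin-associated ATPase known for gene silencing with the HUSH complex. The 3 shCtrl libraries came from cells with a nonsilencing hairpin and the 3 shMORC2 libraries from cells with a hairpin against MORC2. Both populations carried a lentiviral hairpin, were selected with puromycin and grew in medium with serum and antibiotics, and the labels give the genotypes as WT and MORC2 knockdown. The study's methods speak of stable clonal lines and do not say how many hairpins or clones were sequenced, so an effect of MORC2 cannot be told apart from an effect of the hairpin or clone. No stimulus of the NF-kB pathway was named for any library.

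NF-kB is a family of dimeric transcription factors built from the subunits RelA, RelB, c-Rel, p50 and p52. In resting cells the dimers are held by IkB proteins, of which IkB-alpha is encoded by NFKBIA. In the canonical route, receptors for TNF, IL-1 and microbial products activate the IKK complex, IkB-alpha is degraded, and RelA and p50 enter the nucleus. In the non-canonical route, the kinase NIK (MAP3K14) and IKK-alpha (CHUK) drive processing of the NFKB2 product p100 to p52, which pairs with RelB. All 10 genes of the set are textbook targets of the pathway, and several of them restrain or extend it. In gut epithelium the CXCL chemokines attract neutrophils, and CCL20 attracts cells that carry CCR6.

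DNA sites bound by NF-kB dimers have a common core. For 9 members RefSeq promoter windows of 300 bases (GRCh38.p14, 250 before a gene's start to 50 after it), 11 windows in all with 3 for NFKB2, were searched on both strands for GGAANTTCC, for GGACTTTCC and for the degenerate 10-base kB consensus, whose matches can overlap those of the other motifs. RELB had no such window and was not searched. A match was found in 10 of the 11 windows, beside 11.9% of 35116 promoter windows of the same length. Each of the 9 members searched had a match in at least 1 window, beside 14.0% of 27305 genes. Single shares over all windows were 0.965% for GGAANTTCC, 0.37% for GGACTTTCC and 11.3% for the degenerate consensus. The first 5 stretches are those of the chemokine genes, shown because 3 of them carry the same 11 bases. Capitals mark the matches, and every stretch is written 5′ to 3′ on the strand of its gene.
CXCL1, chr4:73869305-73869333, plus strand: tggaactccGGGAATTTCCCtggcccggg
CXCL2, chr4:74099254-74099282, minus strand: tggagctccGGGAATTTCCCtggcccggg
CXCL3, chr4:74038749-74038777, minus strand: tggagctccGGGAATTTCCCtggcccggc
CXCL8, chr4:73740469-73740495, plus strand: gcaaatcgtGGAATTTCCtctgacata
CCL20, chr2:227813754-227813781, plus strand: gatcaatggGGAAAACCCCatgtggcaa
In CXCL1 and CXCL3 the match began at -79 from the gene's start base, and in CXCL2 at -78. The next stretches are those of the regulators, which include the called members NFKBIA and BIRC3. They leave out 1 further match of NFKBIA, a GGACTTTCC that began at -242, and 3 further stretches of NFKB2.
NFKBIA, chr14:35404797-35404854, minus strand: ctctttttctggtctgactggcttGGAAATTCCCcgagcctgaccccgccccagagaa
TNFAIP3, chr6:137867188-137867217, plus strand: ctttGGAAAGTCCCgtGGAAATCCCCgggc
NFKB2, chr10:102394462-102394490, plus strand: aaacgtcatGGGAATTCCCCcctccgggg
BIRC3, chr11:102317261-102317318, plus strand: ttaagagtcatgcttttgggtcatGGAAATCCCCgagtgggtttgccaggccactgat
BIRC3, chr11:102317325-102317382, plus strand: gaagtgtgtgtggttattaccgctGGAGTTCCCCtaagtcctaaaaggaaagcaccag
In GENCODE v44 the CXCL3, TNFAIP3 and NFKB2 stretches overlapped an exon of a transcript of the same gene, the CCL20 stretch lay in an intron of a longer CCL20 transcript, and the others lay upstream of their genes. The members are textbook targets of the pathway, so a high share of matches may come from how the list was chosen. The shares were not tested. A match describes letters in the window, and no binding was measured here.

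The libraries held 42092664 to 43434425 counts. The correlation of log values between libraries was 0.989 to 0.992 within groups and 0.968 to 0.975 between groups. The targeted gene was lower in each shMORC2 library. Counts of MORC2 (chr22:30925130-30968298) were 2021, 1964 and 2007 under shCtrl and 1554, 1219 and 1157 under shMORC2. In TMM-scaled CPM, counts scaled to a common library size, this was 47.1 ± 1.47 (SD, n = 3) against 30.5 ± 4.07 (SD, n = 3), so that 64.7% of the control level was left. The log2 fold change of MORC2 was -0.63 (SE 0.0952, edgeR adjusted p = 0.000216). An opposite-strand gene, MORC2-AS1, overlaps MORC2, and the strand setting of the counting is not given in the sources used here. The summed level of the epithelial markers was 19188 to 26196 CPM in all libraries, and all 10 had enough counts to be tested. The list holds keratins of epithelium in general, such as KRT8 and KRT18, beside gut genes. The sum does not show which of them set it, so it does not tell colorectal from other epithelium. Leukocyte markers summed to 39.1 to 48.2 CPM in shCtrl and 60.1 to 112 CPM in shMORC2, a sum set by CD68 (1297 to 1595 against 2198 to 4222 counts), while MS4A1 had 0 counts in every library and CD3D, CD3E, ITGAM and PTPRC no more than 6. Fibroblast markers summed to 20.0 to 20.9 CPM against 22.7 to 25.0 CPM, and endothelial markers to 15.7 to 19.6 CPM against 20.6 to 22.3 CPM. The part of these markers in the results was not tested. In bulk RNA, fewer cells that express a gene cannot be told apart from less of its RNA per cell.

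After MORC2 knockdown, 3 of the 9 tested members were lower and 0 were higher by edgeR. RELB fell to 36.0% of its control level and BIRC3 to 59.8%, while NFKBIA fell to 78.2%. The 5 chemokine genes, TNFAIP3 and NFKB2 had no call. At an unadjusted p under 0.05, 1 member, CXCL1, was higher, and DESeq2 called 0 higher. Calls were made by edgeR's quasi-likelihood test at an adjusted p under 0.05 over all 21005 genes. By that rule 39.5% of all genes tested were called, 19.6% lower and 19.9% higher, beside 33.3% of the tested members. The median log2 fold change was -0.22 over the tested members and -0.01 over all genes tested. In 4 members the groups did not overlap, 3 below and CXCL1 above, against 50.2% of all genes tested that did not overlap (25.1% below and 25.1% above). The labels do not say that the libraries came from separate cultures, and the p-values measure the spread between these libraries.

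**Figure D1:**
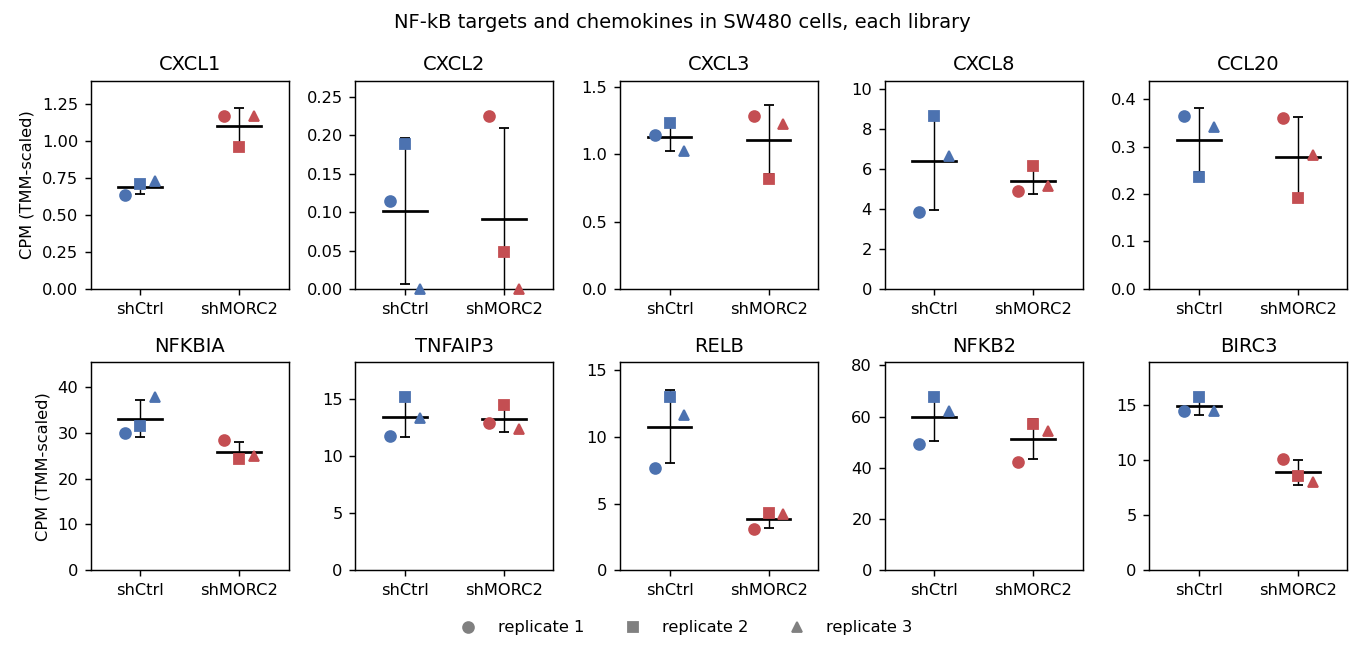
TMM-scaled CPM of each member in each library, with 1 panel and 1 linear axis from 0 for each gene. Points are libraries, symbols give the replicate number, and bars show the mean ± SD of 3. RELB, BIRC3 and NFKBIA are lower and CXCL1 is higher in all 3 shMORC2 libraries than in any shCtrl library; the other panels overlap.

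CXCL1 encodes a neutrophil chemokine that binds CXCR2. The 3 shCtrl libraries held 28, 30 and 30 counts of it, and the 3 shMORC2 libraries 52, 40 and 50 counts. It was the only chemokine of the set whose groups did not overlap. The level was 0.692 ± 0.0476 CPM (SD, n = 3) against 1.10 ± 0.123 CPM (SD, n = 3), a log2 fold change of 0.67 with a 95% interval from 0.11 to 1.23. With an adjusted p of 0.0540 it did not pass the threshold, and none of the 12 alternatives that could test it called it (adjusted p from 0.0535 to 0.147).

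CXCL2 and CXCL3 encode close relatives of CXCL1 that bind the same receptor. CXCL2 had 5, 8 and 0 counts in shCtrl and 10, 2 and 0 counts in shMORC2, and was not tested. A count of 0 allows up to 3 counts in a library. Without a filter on low counts, its log2 fold change was -0.13 (SE 0.986, adjusted p = 0.952), an error too wide to read a direction. CXCL3 had 50, 52 and 42 counts in shCtrl and 57, 34 and 52 counts in shMORC2. The shMORC2 values lay on both sides of the shCtrl values. Its log2 fold change was -0.03 with a 95% interval from -0.57 to 0.51 (adjusted p = 0.942).

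The 3 genes share much of their sequence. Over the coding sequence of the canonical GENCODE v44 transcripts, CXCL1 was 93.5% identical to CXCL2 and 90.7% identical to CXCL3, and CXCL2 was 94.4% identical to CXCL3. The longest identical runs were 61, 55 and 97 bases. CXCL8 was 54.5% to 56.0% identical to the other 3, with runs of 9 to 11 bases. How reads that match more than 1 gene were counted is not given in the sources used here, so the split of counts among CXCL1, CXCL2 and CXCL3 is uncertain.

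CXCL8 encodes interleukin-8, the main neutrophil chemokine of human epithelium, and had the highest level per length of the 5 chemokine genes. It had 168, 366 and 274 counts in shCtrl and 216, 255 and 220 counts in shMORC2. The shCtrl libraries spread so widely that all 3 shMORC2 values lay between the lowest and the highest of them. The level was 6.38 ± 2.42 CPM (SD, n = 3) against 5.39 ± 0.656 CPM (SD, n = 3), a log2 fold change of -0.24 with a 95% interval from -0.73 to 0.24 (adjusted p = 0.415). Single shCtrl libraries decided this value. Without shCtrl replicate 1 the log2 fold change was -0.51 (adjusted p = 0.0172), and without shCtrl replicate 2 it was 0.04 (adjusted p = 0.914).

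CCL20 encodes the ligand of CCR6. It had 16, 10 and 14 counts in shCtrl and 16, 8 and 12 counts in shMORC2, with overlapping groups. Its log2 fold change was -0.17 with a 95% interval from -1.08 to 0.74 (adjusted p = 0.780), so that differences of up to about that size could not be detected at this depth. Summed over the 5 chemokine genes, the level was 6.09, 11.0 and 8.75 CPM in shCtrl and 7.91, 8.14 and 7.84 CPM in shMORC2, with the shMORC2 values inside the range of the shCtrl values. Of the 24 values of CXCL1, CXCL2, CXCL3 and CCL20, 22 were even numbers. Over all genes, 64.6% to 67.7% of the values from 1 to 30 in a library were even. The 24 values also held counts of 0, taken as even, and counts over 30, so the ranges compared are unlike. The cause was not tested, and the number of independent molecules behind these low counts is not known.

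NFKBIA encodes IkB-alpha, which binds NF-kB dimers in the cytoplasm and is itself induced by them. It stood at 29.9, 31.5 and 37.7 CPM in shCtrl and at 28.3, 24.3 and 24.9 CPM in shMORC2. The groups did not overlap, but the highest shMORC2 library came close to the lowest shCtrl library. The log2 fold change was -0.35 (SE 0.101, 95% interval from -0.57 to -0.14, adjusted p = 0.0135). The call was lost without shCtrl replicate 3 (-0.25, adjusted p = 0.0949), without shMORC2 replicate 2 (-0.31, adjusted p = 0.0729) and without shMORC2 replicate 3 (-0.32, adjusted p = 0.0654).

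TNFAIP3 encodes A20, a ubiquitin-editing enzyme that shuts off signals to IKK. It stood at 11.8, 15.2 and 13.3 CPM in shCtrl and at 13.0, 14.6 and 12.4 CPM in shMORC2. The groups lay on top of each other. The log2 fold change was -0.01 with a 95% interval from -0.26 to 0.23 (adjusted p = 0.933), an interval that did not reach the values of RELB or BIRC3. An opposite-strand gene, RP11-356I2.4, overlaps TNFAIP3.

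RELB encodes the partner of p52 in the non-canonical route and showed the largest difference of the set. It had 337, 548 and 477 counts in shCtrl and 136, 179 and 180 counts in shMORC2. The highest shMORC2 library was far below the lowest shCtrl library. The level was 10.7 ± 2.74 CPM (SD, n = 3) against 3.86 ± 0.692 CPM (SD, n = 3), a log2 fold change of -1.48 (SE 0.189, 95% interval from -1.88 to -1.07, adjusted p = 5.85e-05). RELB was called in all 15 alternatives, with values from -1.67 to -0.99.

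NFKB2 encodes p100, the precursor of p52. It stood at 49.3, 67.6 and 62.2 CPM in shCtrl and at 42.4, 57.0 and 54.2 CPM in shMORC2. The groups overlapped, yet replicate 1 was the lowest library in both. The log2 fold change was -0.22 (SE 0.124, 95% interval from -0.49 to 0.05, adjusted p = 0.175) and did not pass. With the replicate number as a block it was -0.22 with an adjusted p of 0.00451 and was called, which brought the members called lower from 3 to 4 of 9. In that fit 49.0% of all genes tested were called, 24.5% lower and 24.4% higher. The log2 ratios within the numbered pairs were -0.22, -0.24 and -0.20. Without shCtrl replicate 1 the value was -0.34 (adjusted p = 0.0221). With NFKB2 and CXCL8, 5 members were called lower in that setting. In it 7898 of all 21521 genes tested were called in either direction. The number called lower alone is not given here, so the 5 are not read as a trait of the members.

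BIRC3 encodes cIAP2, a ubiquitin ligase that works with TRAF2 at TNF receptors and holds NIK low. It had 635, 666 and 595 counts in shCtrl and 451, 357 and 341 counts in shMORC2. Every shMORC2 library was below every shCtrl library, and the shCtrl libraries were close together. The level was 14.9 ± 0.734 CPM (SD, n = 3) against 8.92 ± 1.12 CPM (SD, n = 3), a log2 fold change of -0.74 (SE 0.111, 95% interval from -0.98 to -0.50, adjusted p = 0.000202). BIRC3 was called in all 15 alternatives, with values from -0.84 to -0.45.

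**Figure D2:**
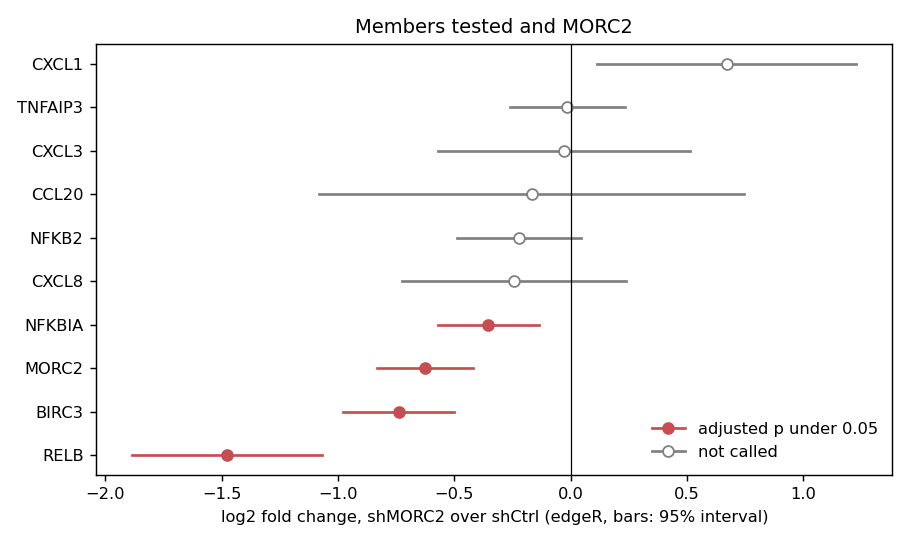
Log2 fold change (shMORC2 over shCtrl) of the 9 tested members and of MORC2, with 95% intervals from edgeR. Filled red points passed an adjusted p under 0.05: RELB at -1.48, BIRC3 at -0.74, MORC2 at -0.63 and NFKBIA at -0.35; CXCL1 lies at 0.67 with an interval above 0 but was not called.

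**Figure D3:**
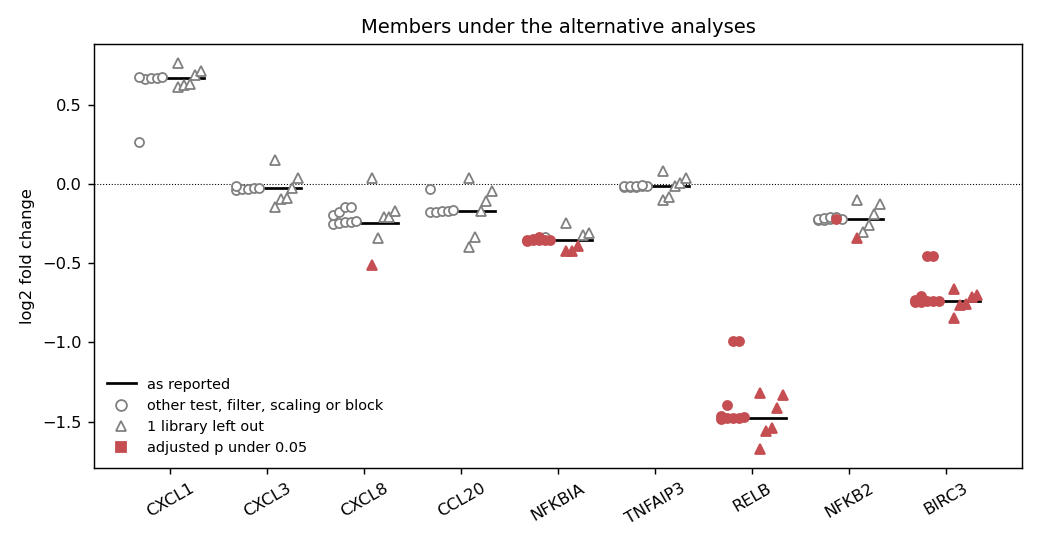
Log2 fold change (vertical axis, shMORC2 over shCtrl) of each tested member under the alternative analyses, with circles for another test, filter, scaling or the replicate block, triangles for fits with 1 library left out, and black lines for the values reported. Red marks an adjusted p under 0.05: RELB and BIRC3 are red in all 15 alternatives, NFKBIA in 11, and CXCL1, CXCL3, CCL20 and TNFAIP3 in none.

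The level of different genes was compared per length, in the deposited RPKM. In shCtrl the order ran from NFKBIA (13.9 ± 1.40 RPKM) and NFKB2 (13.3 ± 1.94 RPKM), whose levels differed by less than their SD, to RELB (3.54 ± 0.862 RPKM), CXCL8 (2.80 ± 1.05 RPKM) and TNFAIP3 (2.66 ± 0.325 RPKM), where each neighbour in the order again differed from the next by less than the larger SD (n = 3 each). BIRC3 followed (1.99 ± 0.112 RPKM), below TNFAIP3 by more than either SD. CXCL1 (0.535 ± 0.0257 RPKM) and CXCL3 (0.511 ± 0.0552 RPKM) did not differ beyond their SD, and CCL20 (0.234 ± 0.0522 RPKM) and CXCL2 (0.0682 ± 0.0639 RPKM) were lowest. In shMORC2 the order of the levels was NFKB2 (11.4 ± 1.49 RPKM), NFKBIA (10.9 ± 1.15 RPKM), TNFAIP3 (2.62 ± 0.201 RPKM), CXCL8 (2.36 ± 0.248 RPKM), RELB (1.27 ± 0.203 RPKM), BIRC3 (1.18 ± 0.174 RPKM), CXCL1 (0.849 ± 0.106 RPKM), CXCL3 (0.499 ± 0.122 RPKM), CCL20 (0.207 ± 0.0670 RPKM) and CXCL2 (0.0616 ± 0.0811 RPKM). In that group NFKB2 and NFKBIA, and RELB and BIRC3, were the neighbours that differed by less than the larger SD. RELB stood above CXCL8 and TNFAIP3 in the shCtrl order and below both in the shMORC2 order.

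Among the 5 NF-kB subunit genes, 0 were called higher and 2 lower, RELB and REL; 0 were higher at an unadjusted p under 0.05 or by DESeq2, and the same held for the IkB genes. REL encodes c-Rel, and fell from 21.8 ± 1.40 CPM to 13.0 ± 0.598 CPM (log2 fold change -0.75, adjusted p = 4.26e-05). Counts of REL were 1025, 882 and 867 in shCtrl and 602, 541 and 527 in shMORC2, with no overlap. RELA and NFKB1, the pair of the canonical route, had log2 fold changes of 0.05 (adjusted p = 0.754) and 0.06 (adjusted p = 0.652).

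Of the 6 IkB and atypical IkB genes, 0 were called higher and 3 lower: NFKBIA, NFKBIE and BCL3. NFKBIE encodes IkB-epsilon, and its counts were 352, 415 and 342 in shCtrl and 178, 211 and 138 in shMORC2 (log2 fold change -1.09, adjusted p = 0.000165). BCL3, a nuclear IkB protein that binds p50 and p52 dimers, had 242, 404 and 332 counts in shCtrl and 92, 155 and 157 in shMORC2 (log2 fold change -1.29, adjusted p = 0.000661). As in RELB, replicate 1 was the lowest BCL3 library of both groups. NFKBIB (-0.12, adjusted p = 0.268), NFKBIZ (-0.27, adjusted p = 0.262) and NFKBID (-0.03, adjusted p = 0.926) were not called on the log2 fold change scale. The median log2 fold change of the 6 genes was -0.31. The share called in either direction was 40% of the subunit genes and 50% of the IkB genes, beside 39.5% of all genes tested. In the lists that follow it was 57.1% (kinases), 38.9% (adaptors and ligases), 57.1% (brakes), 40% (receptors) and 40% (activating ligands). It was 14.3% for other chemokines, 33.3% for chemokine receptors and 58.8% for other targets.

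Of 14 IKK subunits and upstream kinases, 3 were called higher and 5 lower. IKBKG, the regulatory subunit NEMO, rose from 96.3 ± 3.27 CPM to 141 ± 13.4 CPM (log2 fold change 0.55, adjusted p = 0.000184). IKBKG has a near-identical pseudogene copy, IKBKGP1, so its counts are uncertain. RIPK1, a kinase of the TNF receptor complex, rose by 0.34 on the log2 scale (adjusted p = 0.00383). TBK1, a kinase related to IKK that is also known to restrain NIK, fell by 0.84 (adjusted p = 6.93e-05), and MAP3K7, which encodes the IKK kinase TAK1, fell by 0.36 (adjusted p = 0.00481). IKBKB, the catalytic subunit IKK-beta, had a log2 fold change of -0.25 (adjusted p = 0.0276), a call that was kept only without shCtrl replicate 3 among the 6 fits with 1 library left out (adjusted p up to 0.0944 in the others). The non-canonical kinases CHUK (-0.20, adjusted p = 0.113) and MAP3K14 (-0.28, adjusted p = 0.118) were not called. With the replicate block both were called lower (adjusted p = 0.0280 and 0.0350). So was CHUK without shMORC2 replicate 1 (adjusted p = 0.0357) and MAP3K14 without shCtrl replicate 1 (adjusted p = 0.0201). MAP3K14 overlaps MAP3K14-AS1 on the opposite strand.

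Of 18 adaptors and ubiquitin ligases, 0 were called higher (1, TRAF1, at an unadjusted p under 0.05 and with the replicate block, and 0 by DESeq2) and 7 lower, BIRC3 among them. TRAF5, an adaptor of TNF receptor family members, fell from 95.8 ± 8.35 CPM to 44.1 ± 5.52 CPM (log2 fold change -1.12, adjusted p = 2.97e-06). Of 7 deubiquitinases and other brakes tested, 2 were called higher and 2 lower. OTULIN, which removes linear ubiquitin chains, fell by 0.97 (adjusted p = 4.92e-05) and TNIP2, a partner of A20, fell by 0.52 (adjusted p = 0.000334) on the log2 scale. CYLD, a deubiquitinase that restrains the pathway, rose by 0.38 (adjusted p = 0.0105; 0.0515 without shCtrl replicate 2), and N4BP1 rose by 0.27 (adjusted p = 0.0249; 0.0531 to 0.0990 without shCtrl replicate 1 or 3 or shMORC2 replicate 2 or 3).

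Of 24 receptors, 15 were tested, with 2 called higher and 4 lower. TLR4, the lipopolysaccharide receptor, fell by 0.74 (adjusted p = 0.00684) and TNFRSF10B, a receptor for TRAIL, fell by 0.51 (adjusted p = 0.00113) on the log2 scale. IL1RAP, the co-receptor for IL-1, rose by 0.52 (adjusted p = 0.00472). FAS rose by 0.48 (adjusted p = 0.0208; 0.0515 without shCtrl replicate 1, 0.0794 without shCtrl replicate 3, 0.0671 without shMORC2 replicate 2). Of 15 activating ligands, 5 were tested, with TNFSF10, which encodes TRAIL, called higher (0.57, adjusted p = 0.00368) and IL18 called lower (-0.83, adjusted p = 0.00402). TNF had at most 2 counts and IL1B at most 2 counts in any library.

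Of 38 other chemokine genes, 22 had 3 counts or fewer in every library and 7 were tested. CX3CL1 was called lower, with 257, 280 and 288 counts in shCtrl and 174, 204 and 232 in shMORC2 (log2 fold change -0.45, adjusted p = 0.0255). The CX3CL1 call was lost without shCtrl replicate 2 or 3 or shMORC2 replicate 1 or 2 (adjusted p from 0.0568 to 0.0951). CXCL5, a CXCR2 ligand chosen here after its values were seen, gave 10, 12 and 8 counts in shCtrl, and 0 counts under shMORC2 in all 3, too few to be tested. Of 22 chemokine receptor genes, 9 were tested, with 1 called higher and 2 lower. CXCR5 was called lower (log2 fold change -0.36, adjusted p = 0.0266) and overlaps BCL9L on the opposite strand. Its call was lost without shCtrl replicate 2 or 3 or shMORC2 replicate 1 (adjusted p from 0.0828 to 0.103). The other called receptor genes had lower counts and were named after their values were seen. CXCR4, the receptor for CXCL12, rose by 1.31 on the log2 scale, with 16, 16 and 35 counts in shCtrl and 50, 65 and 54 in shMORC2 (adjusted p = 0.00751). CCR10 had a log2 fold change of -0.97, with 36, 39 and 55 counts in shCtrl and 25, 19 and 23 in shMORC2 (adjusted p = 0.0220), a call lost without shCtrl replicate 3 or shMORC2 replicate 2 or 3 (adjusted p up to 0.123). CXCR2, the receptor for CXCL1, CXCL2, CXCL3 and CXCL8, had 0 counts in every library.

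Of 47 other textbook NF-kB target genes, 34 were tested, with 7 called higher and 13 lower and a median log2 fold change of -0.10. C3, the central complement protein, had 625, 789 and 730 counts in shCtrl and 83, 246 and 267 in shMORC2 (log2 fold change -1.85, adjusted p = 0.00026). The cytokine gene LIF had 1063, 2142 and 1801 counts in shCtrl and 569, 599 and 597 in shMORC2 (-1.52, adjusted p = 6.08e-05). In both genes every shMORC2 library was below every shCtrl library. CD44, an adhesion receptor, rose by 0.80 (adjusted p = 0.00031) and PLAU, the urokinase gene, rose by 0.48 (adjusted p = 0.0108; 0.0658 without shMORC2 replicate 2) on the log2 scale. Over the 192 pathway genes outside the members, 115 were tested, with 16 called higher and 37 lower, which is 46.1% beside the 39.5% of all genes tested. Their median log2 fold change was -0.11. With the replicate block 25 were called higher and 44 lower, which is 69 of 115 beside 49.0% of all genes tested in that fit.

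**Figure D4:**
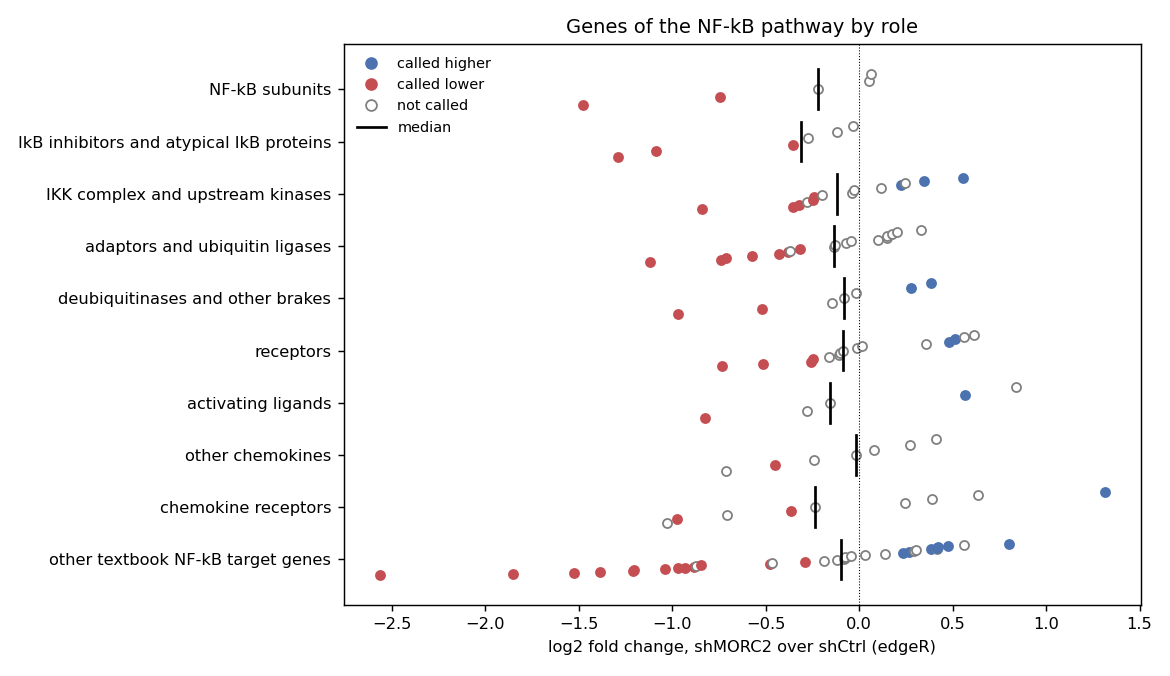
Log2 fold change (shMORC2 over shCtrl, edgeR) of each tested gene of 10 lists of the NF-kB pathway, members included where a list holds them, with black bars for the median of a list. Called genes are blue when higher and red when lower; the subunit and IkB lists hold red and open points, and the kinase list holds points of each kind.

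The 4 CXCL members lie in 1 cluster on chromosome 4. Within 500 kb of them (chr4:73240506-74599293) there were 29 other genes, and 14 of these had 3 counts or fewer in every library. Of the 10 tested, 1 was called higher and 3 lower. Over all genes tested, 19.9% were called higher and 19.6% lower, and the region was not tested as a whole. AFP, the alpha-fetoprotein gene, gave 219, 262 and 218 counts in shCtrl, whereas all 3 shMORC2 libraries had 0. ALB, the albumin gene beside it, named after its values were seen, had 102, 124 and 73 counts in shCtrl and 32, 14 and 18 in shMORC2 (log2 fold change -2.23, adjusted p = 8.27e-05). RASSF6, which lies between AFP and CXCL8, rose by 0.36 on the log2 scale (adjusted p = 0.0206), a call lost without shCtrl replicate 3 or shMORC2 replicate 1 or 2 (adjusted p from 0.0524 to 0.0797). ANKRD17 had a log2 fold change of -0.22 (adjusted p = 0.0331), a call lost without shCtrl replicate 1 or 3 or shMORC2 replicate 2 or 3 (adjusted p from 0.0974 to 0.139). CXCL6, the nearest other chemokine gene to CXCL1 that was tested, had 136 to 150 counts in the libraries (log2 fold change -0.01, adjusted p = 0.947). The growth factor genes EREG (402, 925 and 712 counts in shCtrl; 527, 630 and 528 in shMORC2) and AREG (1116, 2238 and 1521 in shCtrl; 1162, 1546 and 1207 in shMORC2), named after their values were seen, were lowest in shCtrl replicate 1 and highest in shCtrl replicate 2, as CXCL8 was. Neither was called (adjusted p = 0.321 and 0.210). With the replicate block AREG was called lower (-0.29, adjusted p = 0.00361) and EREG was not (adjusted p = 0.0974), and without shCtrl replicate 1 both were called lower (adjusted p = 0.00638 for AREG and 0.00232 for EREG).

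Within 500 kb of CCL20 there were 16 other genes, of which 4 were tested and 1, MFF, was called higher (log2 fold change 0.30, adjusted p = 0.00667). Within 500 kb of BIRC3 (chr11:101817450-102839403) there were 29 other genes, of which 8 were tested, 3 called higher and 2 lower. The shares over all genes tested were 19.9% higher and 19.6% lower, and neither region was tested as a whole. BIRC2, the paralogue that encodes cIAP1 and starts 29.8 kb from the start of BIRC3, had 812, 892 and 831 counts in shCtrl and 1004, 823 and 621 in shMORC2. Its log2 fold change was -0.07 with a 95% interval from -0.36 to 0.22 (adjusted p = 0.710). On the other side of BIRC3, YAP1, a transcriptional co-activator of the Hippo pathway, rose by 0.44 on the log2 scale (adjusted p = 0.000477). The unnamed genes RP11-732A21.3 and RP11-864G5.3 rose by 0.62 (adjusted p = 0.000659) and 0.36 (adjusted p = 0.0091), the latter with an overlap with YAP1 on the opposite strand. MMP7, which encodes the metalloproteinase matrilysin and was named after its values were seen, had 142, 125 and 148 counts in shCtrl and 44, 42 and 58 in shMORC2 (log2 fold change -1.54, adjusted p = 5.79e-05). TMEM123 had a log2 fold change of -0.24 (adjusted p = 0.0367) with overlapping groups, a call lost without shCtrl replicate 1 or 3 or shMORC2 replicate 2 or 3 (adjusted p from 0.0831 to 0.160).

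**Figure D5:**
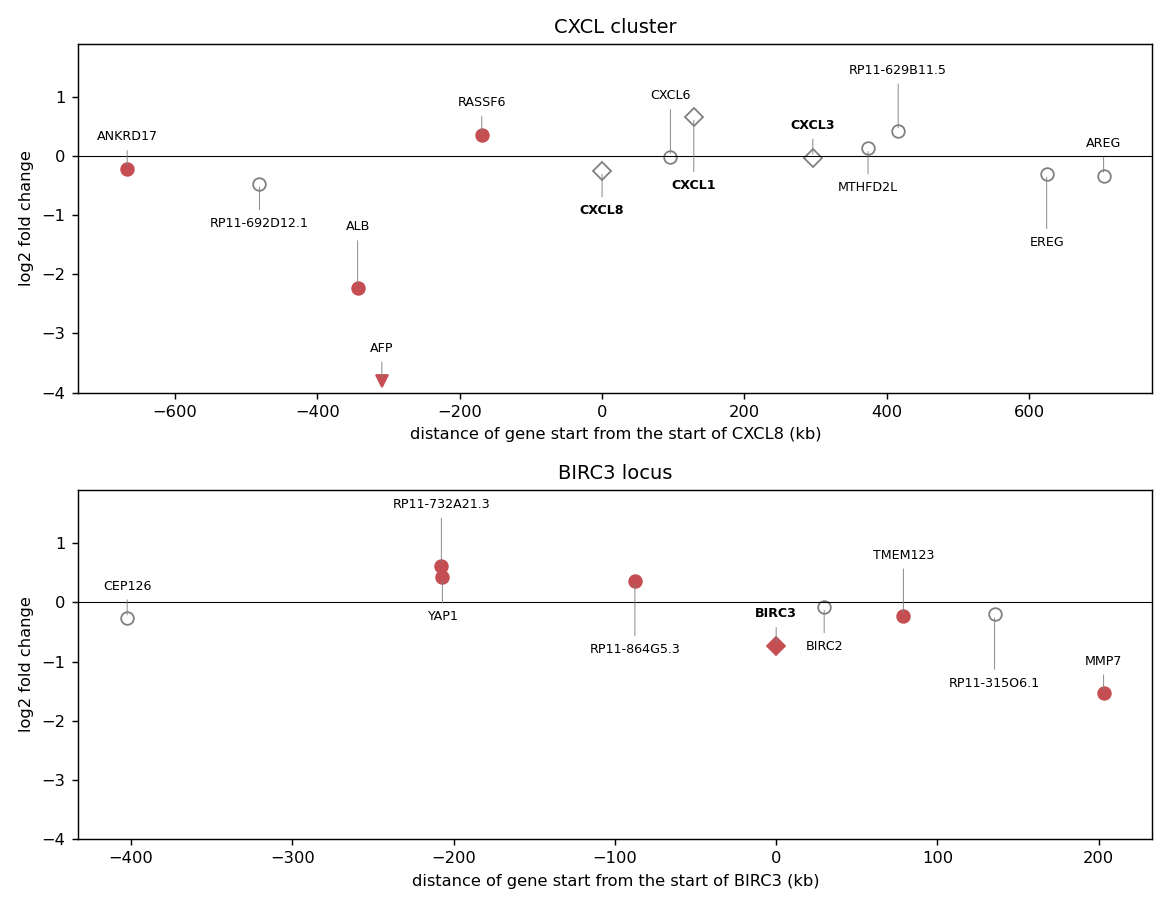
Log2 fold change (shMORC2 over shCtrl) of the tested genes around the CXCL members (upper panel) and BIRC3 (lower panel), by the distance of each gene's start from the start of CXCL8 or BIRC3 in kb. Diamonds and bold names are members, red marks called genes, and the triangle for AFP is drawn at the lower limit because AFP had 0 counts in every shMORC2 library; the called genes of either panel include both directions.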

How the data were processed

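Stranded mRNA libraries (a kit that adds molecular identifiers) of 6 SW480 samples were grouped by the labels into shCtrl and shMORC2. Raw counts of reads for each gene symbol, and RPKM values made from them, were deposited by the authors; the counts per length and total returned the deposited RPKM to a relative difference of 5.12e-15. The submitters' processing notes name Trimmomatic 0.36, STAR 2.5.3a, featureCounts of Subread 1.5.1, edgeR 3.12.1 and GRCh38. The annotation release, strand setting and use of identifiers are not given in the sources used here. The tables had 0 columns of other samples and 0 rows without a gene name. All 11 genes compared (MORC2 and the members) overlapped their GENCODE v44 entry on GRCh38. Deposited splicing tables hold the authors' own comparison and were not used here.

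The count test was the quasi-likelihood test of edgeR 4.0.16 (R 4.3.3), after filterByExpr (TMM factors from 0.9779 to 1.026, group as the term, Benjamini-Hochberg adjustment). The SE was the log2 fold change divided by the square root of F. Alternatives used DESeq2 1.42.0, limma 3.58.1 on log2(RPKM + 1) and log2(RPKM + 0.1), other scalings and filters, a replicate block and fits without single libraries. On simulated counts for 20662 genes, edgeR recovered 93.8% of 195 changed genes, with 11 false among 194 calls. The simulated log2 fold changes were 1 or 2 in size, of which 88.7% and 99% were recovered. Far fewer genes were changed than the 8301 called here. Smaller changes, such as those of NFKBIA and NFKB2, and an effect of the replicate number were not simulated, so the power for them is not known. Deviations of same-numbered libraries correlated at 0.215, 0.111 and 0.102, against -0.156 to 0.0527 for other numbers. The numbers were therefore taken as pairs in the replicate block and in the ratios within pairs. This rests on the values, since no label says what a number marks. The deviations were taken from group means, so positive correlations for same numbers lower those for other numbers. Their contrast is not independent support for pairing. The main fit and its calls left the number out, and with the block 10287 genes were called in place of 8301. Within groups, chi-square per degree of freedom was 6.35 to 21.5, so no 2 libraries were duplicates.

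Named genes were MORC2, the members, core subunits, IkB and IKK genes, up to 2 genes per direction and list that averaged 100 counts or more, and up to 5 called genes per locus. The members and lists were chosen with earlier results of these data known. The 0-count floor was 3 counts and covers counting error, as library depth does. Sequences came from RefSeq (GRCh38.p14) and were aligned with Biopython 1.88.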

Additional observations from a re-analysis of the deposited data

How the results depend on the processing

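RELB, BIRC3, REL, NFKBIE, BCL3, IKBKG, TRAF5 and MORC2 kept their direction and their call in all 15 alternatives. Of all genes tested, 8301 were called; limma on log2(RPKM + 1) without a filter called 5454, and fits without 1 library called 6268 to 8433. Members called lower numbered 3; the fits without 1 library gave 2 to 5, and a log2 fold change of at least 1 left 1. The NFKBIA call was also lost in limma on log2(RPKM + 1) without a filter (adjusted p = 0.0733). Pathway genes outside the members called higher numbered 16; this was 10 with limma at a mean RPKM of at least 1 under both pseudocounts and 6 without that filter, and 11 to 22 without 1 library. Those called lower numbered 37; limma without a filter gave 24, and fits without 1 library gave 28 to 38. The cause of these changes was not tested. With the replicate block 10287 genes were called, of which 8291 were shared with the fit without it; pathway genes called higher came to 25 and lower to 44, and the list that gained most calls higher, the other textbook targets, went from 7 to 10. The block changed the calls of NFKB2 (-0.22, adjusted p = 0.00451), CHUK, MAP3K14, TRAF1 (adjusted p = 0.0171) and AREG (adjusted p = 0.00361), and of no other member, core gene or gene named by the rule.

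Values that were not called changed sign when 1 library was left out: CXCL3 ranged from -0.15 to 0.15, CXCL8 from -0.51 to 0.038, CCL20 from -0.40 to 0.036, TNFAIP3 from -0.10 to 0.081, RELA from -0.043 to 0.18, NFKB1 from -0.0011 to 0.14 and NFKBID from -0.17 to 0.12 on the log2 fold change scale. Of the alternatives of the main counts and MORC2, 86 gave the same answer, 2 a stronger and 6 a weaker one. Of those of single genes and lists, 871 gave the same answer, 19 a stronger and 110 a weaker one, and 12 a reversed sign. In both tallies a count moderately off the main one was also labelled the same, so the label does not mean unchanged. For genes called over the whole table, 6268 in place of 8301 counted as the same and 5454 as weaker. A single gene was labelled the same when it kept its sign and call status. No alternative moved the median log2 fold change of all genes by 0.1. The members at under 100 counts in a library (CXCL1, CXCL2, CXCL3 and CCL20) are limited by depth, and 3 libraries per group limit the rest.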

Other observations

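Replicate 1 stood apart from replicates 2 and 3 in both groups for some gene groups. The summed level of the 10 colorectal epithelium markers was 20151 and 19188 CPM in replicate 1 of shCtrl and shMORC2, and 25655 to 26196 CPM in the other 4 libraries. Among the 9 members with CXCL2 left out, replicate 1 was the lowest shCtrl library for 6, and replicate 2 was the highest shCtrl library for 6. In the shMORC2 group replicate 1 was the lowest library for 3 members and the highest for 4. Over the numbered pairs, 5 members were lower in shMORC2 in all 3 pairs and 1, CXCL1, was higher in all 3. The 5 include CCL20, whose log2 ratio in pair 1 was only -0.013. These counts by replicate number and by pair were not made over all genes tested, so they are not read as a trait of the members. Summed over NFKBIA, TNFAIP3, RELB, NFKB2 and BIRC3, the level was 113, 143 and 139 CPM in shCtrl and 96.9, 109 and 104 CPM in shMORC2. What the replicate number marks is not stated in the labels, and its part in these values was not tested.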
